A study of Mus musculus with 16 samples.

Results

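The respiratory chain subunits measured here are 109 genes of the 30451 in the count table, chosen by symbol alone: 96 nuclear genes, whose symbols begin with Nduf, Sdh, Uqcr, Cox or Atp5 followed by a subunit code, and the 13 protein genes of mitochondrial DNA. Their transcripts were counted in single cells of whole testes from mice at postnatal day 2, in wild type and in a Ddx5 conditional knockout in which Ddx5, an RNA helicase gene, carries flox alleles and Cre is driven by the germ cell promoter of Mvh. Cre therefore acts in germ cells and leaves the flox alleles of somatic cells intact by design. GFP of the Oct4 reporter and CRE were added to the reference. The labels name 16 samples, 8 per genotype, but the barcodes of the table cannot be assigned to them, so that each genotype was 1 library of an unstated number of animals, no test between genotypes was possible and all intervals cover counting error only.

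The chain lies in the inner mitochondrial membrane. Complexes I and II pass electrons from NADH and succinate to ubiquinone, complex III passes them to cytochrome c and complex IV to oxygen, and complex V uses the proton gradient that results to make ATP. Complex II is encoded wholly in the nucleus, whereas the other complexes mix nuclear subunits with subunits made inside the organelle, so that their assembly draws on both genomes. Leydig cells, the androgen-producing cells between the tubules, carry out the opening step of steroid synthesis in mitochondria. Germ cells at this age are gonocytes, Sertoli cells nurse them within the tubule, and peritubular myoid cells and other stroma surround it.

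Cells were barcodes with at least 2000 genes and at most 20% of UMIs (unique molecular identifiers, each a captured RNA molecule) on mitochondrial genes. Cell types were set by marker counts: at least 20 UMIs of Cyp11a1, Cyp17a1 and Hsd3b1 together for Leydig cells, at least 3 of the 4 genes Dazl, Ddx4, Mael and Stk31 for germ cells, at least 3 UMIs of Amh for Sertoli cells, at least 5 of Acta2 and 2 of Myh11 for myoid cells, and for stroma a UMI of Pdgfra with at most 2 of Amh. Barcodes that met several of the other definitions were left out. Paired values below are in the order wild type, knockout-labelled library. There were 179 and 142 Leydig cells, 90 and 12 germ cells, 2174 and 1605 Sertoli cells, 723 and 501 myoid cells, and 2859 and 2497 stroma cells. Markers that these rules used are high in their type by construction, so the types were checked on the others. The 2 Leydig markers not used, Star and Insl3, summed to 2128 and 1864 CPM (UMI counts scaled to a total of 1000000 per group) in Leydig cells and to at most 25.9 CPM elsewhere. The 6 germ cell markers not used summed to 259 and 253 CPM in germ cells and at most 20.3 CPM elsewhere, with Nanos3 at 0 in germ cells of the knockout-labelled library. The 5 Sertoli markers not used summed to 6185 and 5308 CPM in Sertoli cells and at most 111 CPM elsewhere. The 4 myoid markers not used summed to 2327 and 2133 CPM in myoid cells, 602 and 535 CPM in stroma and at most 64.3 CPM elsewhere. The 5 stroma markers not used summed to 10299.9 and 10108 CPM in stroma, 3154 and 3183 CPM in myoid cells and at most 1032 CPM elsewhere, in Sertoli cells. Myoid cells and stroma thus share markers, and stroma markers were counted in every type.

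The libraries held 84263163 and 67558106 UMIs, and median depth ran from 9489 UMIs in wild-type stroma to 34528 in germ cells of the knockout-labelled library. Ddx5 itself stood at 1209 CPM in wild-type germ cells and at 1736 CPM in the 12 germ cells of the knockout-labelled library, a ratio of 1.44 and so not lower there. In the 4 somatic types it was at 0.883 to 0.950 of wild type. By another measure, single-cell qRT-PCR of sorted gonocytes, the study reported Ddx5 mRNA as strongly lower in the knockout. The difference between these measures was not tested. CRE had 0 and 20 UMIs over the libraries and GFP 488 and 22. Hence the second library is called by its label throughout. Summed erythroid markers were higher in it in every type, from 4.82 and 1500 CPM in Leydig cells to 157 and 333 CPM in Sertoli cells, and 12 barcode sequences occurred in both libraries.

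Of the 96 nuclear members, 11 were pseudogenes by name or annotation, leaving aside Ndufb1-ps, which is described below, of which 2 had no UMI and 7 had fewer than 20 in all cells of the 5 types together. Of the 85 others, 79 had at least 1000 UMIs, and the least counted was Cox8b, the heart and muscle form of a complex IV subunit, with 3. The mitochondrial members ranged from mt-Nd4l to mt-Cytb. Since UMIs are counted at the 3' end of a transcript, levels are in CPM without a length correction, and between genes they compare captured molecules only.

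Promoters of the nuclear members were read to show the stretch just upstream of the start, where factors of mitochondrial biogenesis are known to bind. RefSeq promoter windows on GRCm38.p6, from 250 bases before to 50 after each listed start, were matched for 68 of the 96. The letters GCGCATGC (a core of the NRF1 motif), CCGGAAG (ETS factors), AAGATGGC (YY1) or TCAAGGTCA (estrogen-related receptors), searched on both strands, occurred in 32 of the 68, or 47.1%, against 15.3% of 27025 genes with a window. NRF1 letters were in 10 of 68 (14.7%, against 3.05% of all genes), ETS letters in 17 (25.0%, against 9.93%), YY1 letters in 10 (14.7%, against 3.19%) and the receptor letters in 2, Atp5g3 and Sdhd (2.94%, against 0.466%). A match is a match of letters and no evidence of binding. Shown are 6 members by their results below: Ndufa1 and Atp5g3 in Leydig cells, Ndufs8 in germ cells of both libraries, Ndufs7 and Cox7a2l between germ cell libraries, and Cox7b2 as a germ cell form. Each is given by the 150 bases upstream of its only listed RefSeq start, 5' to 3', with matched letters in capitals. Only the stretch of Atp5g3 holds a match, to the receptor letters, while the matches of Ndufs7 (YY1) and Ndufs8 (ETS) lie in the parts of the window not printed. For Ndufs7 and Cox7a2l the listed start lies inside the gene as annotated by GENCODE, so that the stretch shown is not upstream of the whole gene.
Ndufa1, chrX:37191239-37191388, minus strand: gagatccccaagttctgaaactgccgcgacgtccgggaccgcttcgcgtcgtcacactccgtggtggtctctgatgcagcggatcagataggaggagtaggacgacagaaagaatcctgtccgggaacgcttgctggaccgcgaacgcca
Atp5g3, chr2:73911327-73911476, minus strand: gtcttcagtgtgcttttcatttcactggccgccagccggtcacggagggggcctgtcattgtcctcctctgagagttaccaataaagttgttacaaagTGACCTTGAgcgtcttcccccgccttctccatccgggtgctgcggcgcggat
Ndufs8, chr19:3912775-3912924, minus strand: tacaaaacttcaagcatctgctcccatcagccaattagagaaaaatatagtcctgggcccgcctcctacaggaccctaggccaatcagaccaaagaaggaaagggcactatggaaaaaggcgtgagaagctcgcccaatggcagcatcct
Ndufs7, chr10:80249299-80249448, plus strand: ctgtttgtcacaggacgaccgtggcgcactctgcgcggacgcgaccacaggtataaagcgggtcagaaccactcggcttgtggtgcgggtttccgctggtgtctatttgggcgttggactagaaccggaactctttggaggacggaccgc
Cox7a2l, chr17:83514334-83514483, minus strand: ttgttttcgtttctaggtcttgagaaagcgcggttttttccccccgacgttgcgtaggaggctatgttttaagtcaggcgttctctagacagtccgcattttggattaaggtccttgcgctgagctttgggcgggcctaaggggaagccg
Cox7b2, chr5:71548206-71548355, minus strand: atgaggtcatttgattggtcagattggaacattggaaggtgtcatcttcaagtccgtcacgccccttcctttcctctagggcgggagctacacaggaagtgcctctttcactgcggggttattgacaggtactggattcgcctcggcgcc

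Leydig cells gave the largest share of their RNA to the chain in both libraries. Nuclear subunits took 4.34% and 4.24% of the UMIs outside mitochondrial genes in Leydig cells, 3.14% and 1.98% in germ cells, 2.74% and 2.71% in Sertoli cells, 2.15% and 2.06% in myoid cells and 2.10% and 2.08% in stroma. The 13 mitochondrial subunits took 6.22% and 6.25% of all UMIs in Leydig cells, 5.67% and 1.94% in germ cells, 2.49% and 2.37% in Sertoli cells, 1.73% and 1.66% in myoid cells and 1.76% and 1.67% in stroma. The 4 somatic types kept nearly the same share in both libraries, myoid cells lay close to stroma, and germ cells had a smaller share of both kinds in the knockout-labelled library than in wild type. Relative to stroma, the nuclear share of Leydig cells was 2.07 (95% interval 2.06 to 2.08) and 2.04 (95% interval 2.02 to 2.05) times as large and the mitochondrial share 3.53 (95% interval 3.51 to 3.55) and 3.74 (95% interval 3.72 to 3.76) times. In Sertoli cells these ratios were 1.30 and 1.30 for nuclear and 1.41 and 1.41 for mitochondrial subunits, in germ cells 1.495 and 0.950 and 3.22 and 1.16, and in myoid cells 1.02 and 0.987 and 0.982 and 0.991. Ribosomal protein genes took 34.1% of UMIs in germ cells of the knockout-labelled library and 21.8% in its stroma. Outside these genes, the germ cell ratios were 1.40 and 1.14 for nuclear and 2.997 and 1.38 for mitochondrial subunits, so that the nuclear ratio of the knockout-labelled library turned from below to above 1, and its mitochondrial share of germ cells went from 1.94% to 2.94%. All type comparisons share the stroma cells.

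**Figure D1:**
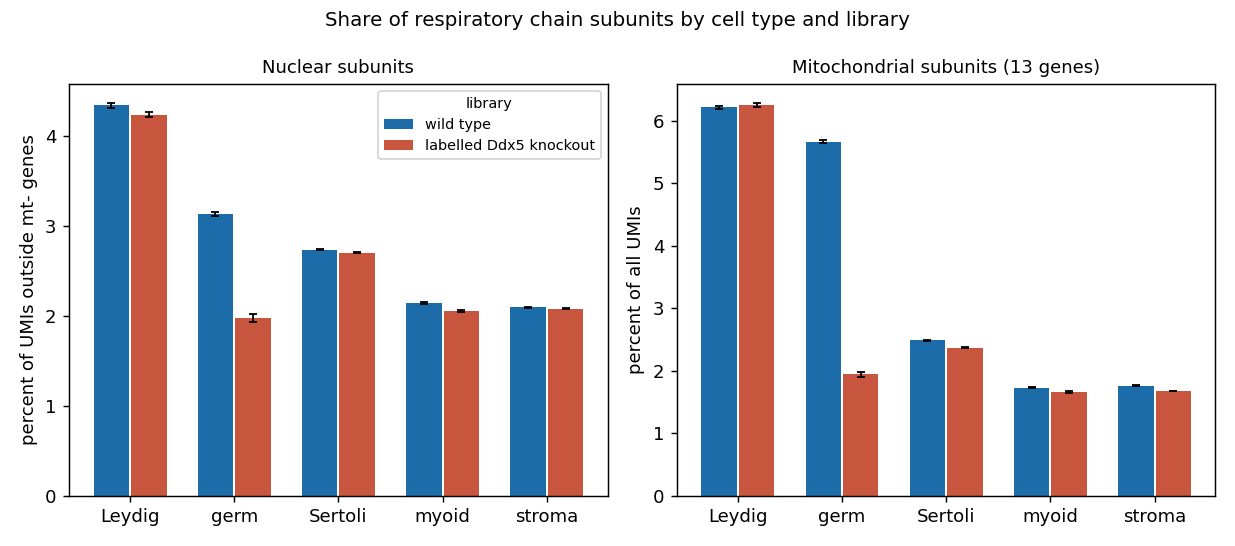
Percent of UMIs on nuclear subunits (left, of UMIs outside mitochondrial genes) and on mitochondrial subunits (right, of all UMIs) by cell type, with blue bars for wild type, red bars for the knockout-labelled library and exact 95% Poisson intervals as error bars. Leydig cells are highest in both libraries, and the germ cell bars fall from 3.14% to 1.98% and from 5.67% to 1.94% between the libraries.

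In Leydig cells the excess ran through all 5 complexes and both genomes, and it was larger for the mitochondrial than for the nuclear subunits of complexes I, IV and V. A member was called higher or lower than in stroma when log2 of the ratio of CPM + 10 was past 1.5-fold the same way in both libraries, among genes with at least 20 UMIs over both types in each. Of 95 members tested, 75 were higher and 0 lower, against 12.1% of 14756 genes called higher and 14.8% called lower. The median log2 ratio was 0.87 and 0.83 over the 82 nuclear members tested and 1.52 and 1.64 over the 13 mitochondrial members, beside -0.07 and -0.08 over all genes tested. By complex, 32 of 37 tested nuclear members of complex I were higher, 3 of 4 of complex II, 7 of 8 of complex III, 12 of 16 of complex IV (Ndufa4 and its paralog counted there) and 9 of 17 of complex V. As summed shares, the ratio of Leydig cells to stroma was 2.25 and 2.18 for nuclear and 4.09 and 4.37 for mitochondrial subunits of complex I, and 2.13 and 2.13 for complex II. For complex III the nuclear and mitochondrial ratios lay close together, at 2.55 and 2.57 and at 2.67 and 2.70. For complex IV they were 1.89 and 1.83 and 4.06 and 4.48, and for complex V 1.89 and 1.89 and 2.49 and 2.65. Other marker lists moved with this result. Of 8 markers of early response and stress 5 were higher in Leydig cells than in stroma and 1 lower, with a summed level of 1994 and 1767 CPM against 1257 and 711 CPM, and of 6 macrophage markers 3 were higher and 0 lower, at 97.3 and 222 CPM against 24.4 and 123 CPM, none at 0. Their part in the Leydig result was not tested.

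Among nuclear members of complex I, Ndufa1 (chrX:37187588-37191163, minus strand, GRCm38), an accessory subunit of the membrane arm, stood farthest above stroma. It measured 395 and 397 CPM in Leydig cells, 105 and 15.1 CPM in germ cells, 110.1 and 101 CPM in Sertoli cells, 86.4 and 90.7 CPM in myoid cells and 87.3 and 80.2 CPM in stroma. Leydig cells were thus 4.52-fold (95% interval 4.22 to 4.85) and 4.95-fold (4.60 to 5.33) over stroma, and no other type came near them. Ndufs3, a core subunit, measured 477 and 483 CPM in Leydig cells, 142 and 58.3 CPM in germ cells, 137 and 137 CPM in Sertoli cells, 138 and 122 CPM in myoid cells and 122 and 124 CPM in stroma, which put Leydig cells 3.90-fold and 3.91-fold above stroma with Sertoli and myoid cells at its level. Ndufb9, an accessory subunit and the most captured nuclear member of complex I in Leydig and germ cells, measured 776 and 746 CPM in Leydig cells, 880.3 and 872 CPM in germ cells, 416 and 423 CPM in Sertoli cells, 297 and 275 CPM in myoid cells and 314 and 318 CPM in stroma. Here germ cells of both libraries matched or exceeded Leydig cells, and Leydig cells were 2.47-fold and 2.35-fold above stroma.

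In complex II, Sdha, the flavoprotein that oxidizes succinate, measured 379 and 413 CPM in Leydig cells, 169 and 66.9 CPM in germ cells, 139.9 and 157 CPM in Sertoli cells, 95.9 and 104 CPM in myoid cells and 108 and 117 CPM in stroma. Leydig cells were 3.51-fold (95% interval 3.28 to 3.76) and 3.53-fold (3.30 to 3.78) above stroma. Sdhb, the iron-sulfur subunit, was 1.79-fold and 1.72-fold above stroma in Leydig cells (249 and 243 CPM against 139 and 141 CPM), and Sdhd, a membrane anchor, 1.63-fold and 1.74-fold. Sdhc, the other anchor, was the member of the complex that was not called, at 118 and 108 CPM in Leydig cells and 103 and 106 CPM in stroma. The interval of Sdha lay above those of the other 3 members in both libraries, and those of Sdhb and Sdhd overlapped.

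Complex III had the highest nuclear ratio. Uqcrq, a small subunit beside cytochrome b, measured 938 and 971 CPM in Leydig cells, 331 and 99.3 CPM in germ cells, 359 and 333 CPM in Sertoli cells, 246 and 207 CPM in myoid cells and 219.7 and 188 CPM in stroma, so that Leydig cells were 4.27-fold (95% interval 4.08 to 4.47) and 5.17-fold (4.93 to 5.42) above stroma. Uqcr10, another small subunit, was 2.97-fold and 3.04-fold above stroma and Uqcrc2, a core subunit, 2.83-fold and 2.80-fold. Uqcrh, the hinge protein that helps dock cytochrome c, was the only member of this complex not called in Leydig cells, at 673 and 682 CPM against 543 and 583 CPM.

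In complex IV, Cox4i1 was the most captured nuclear member in every type, at 1651 and 1692 CPM in Leydig cells, 1877 and 2403 CPM in germ cells, 944 and 936 CPM in Sertoli cells, 1002 and 997 CPM in myoid cells and 978 and 1022 CPM in stroma. It was 1.69-fold and 1.66-fold above stroma in Leydig cells, a small ratio beside that of Cox6a1, the common form of another subunit, which was 3.24-fold and 3.16-fold above stroma (809 and 733 CPM against 249 and 232 CPM). Cox7a2l, which joins complexes III and IV into supercomplexes, stood slightly below stroma in Leydig cells of both libraries, at 312 and 346 CPM against 357 and 375 CPM. The log2 ratio was below 0 in both libraries for this gene, Cox4i2 and Ndufa4l2, the last pair being forms known from low oxygen and barely captured here, and above 0 in both for the other 92 members tested. Of all 14756 genes tested, 5411 were above 0 in both and 7501 below 0 in both.

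In complex V, a ring gene set Leydig cells apart. Atp5g3 (chr2:73908447-73911326, minus strand, GRCm38), which encodes the c subunit of the rotating ring, measured 1056 and 1109.5 CPM in Leydig cells, 404 and 486 CPM in germ cells, 342 and 344 CPM in Sertoli cells, 311 and 294 CPM in myoid cells and 246 and 259.6 CPM in stroma. Leydig cells were 4.30-fold (95% interval 4.12 to 4.48) and 4.27-fold (4.09 to 4.46) above stroma and stood above every other type in both libraries. Atp5g1, a second gene for the same mature protein, measured 592 and 578 CPM in Leydig cells and 415 and 388 CPM in stroma and was not called. Atp5g3 thus held 63.2% and 65.1% of the UMIs of the 3 c subunit genes in Leydig cells, against 36.2% and 39.3% in stroma and 32.2% to 41.7% in the other types. Atp5b, the catalytic beta subunit, measured 1249.6 and 1338 CPM in Leydig cells against 539 and 565 CPM in stroma, whereas Atp5a1, the alpha subunit that alternates with it, measured 691 and 664 CPM against 460.3 and 462 CPM and was not called.

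**Figure D2:**
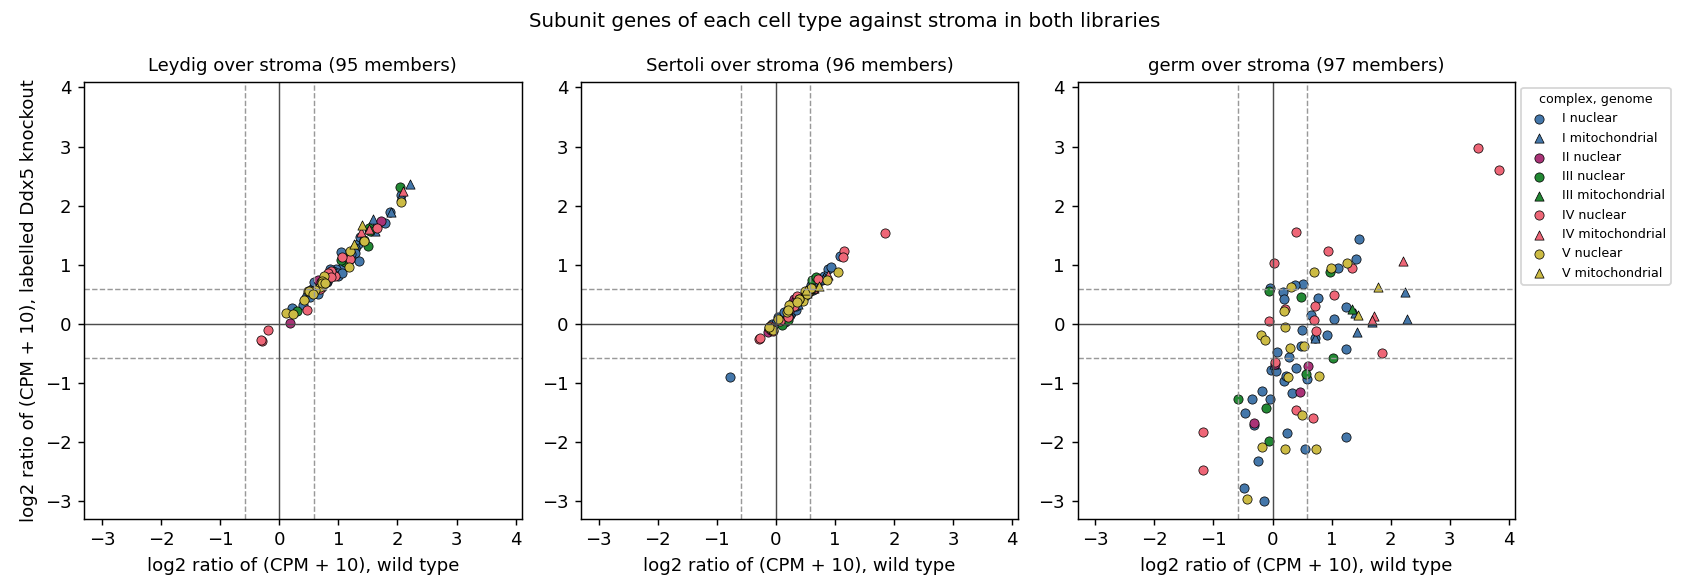
Log2 ratio of CPM + 10 over stroma for each tested member in wild type (horizontal) and in the knockout-labelled library (vertical), in Leydig, Sertoli and germ cells, with complexes by colour, mitochondrial genes as triangles, nuclear genes as circles and 1.5-fold as dashed lines. Leydig and Sertoli members lie along the diagonal, 75 of 95 and 27 of 96 past 1.5-fold upward in both libraries, whereas germ cell members spread downward on the vertical axis.

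Of the 13 mitochondrial subunits, 12 were called higher in Leydig cells than in stroma. The exception was mt-Nd4l, with 19 and 17 UMIs in Leydig cells. mt-Nd1 (chrM:2751-3707, plus strand), a membrane subunit of complex I, measured 14451 and 15757 CPM in Leydig cells, 15036 and 3229 CPM in germ cells, 5435 and 5272 CPM in Sertoli cells, 3530.0 and 3535 CPM in myoid cells and 3094 and 3054 CPM in stroma. Leydig cells were 4.67-fold (95% interval 4.62 to 4.72) and 5.16-fold (5.10 to 5.22) above stroma, the largest ratio of the mitochondrial genome. mt-Co1, the catalytic subunit of complex IV, measured 2753 and 3187 CPM in Leydig cells, 3008 and 1392 CPM in germ cells, 1188 and 1186 CPM in Sertoli cells, 534 and 549 CPM in myoid cells and 641 and 664 CPM in stroma, with Leydig cells 4.30-fold and 4.80-fold above stroma. mt-Cytb, which is cytochrome b of complex III and the most captured of the 13 in every type, measured 17130.4 and 15951 CPM in Leydig cells, 16234 and 7024 CPM in germ cells, 7359 and 6833 CPM in Sertoli cells, 5918 and 5506 CPM in myoid cells and 6405 and 5903 CPM in stroma. Its ratio in Leydig cells, 2.67 and 2.70, was below that of mt-Nd1, and its part of the mitochondrial subunit UMIs was 27.6% and 25.5% in Leydig cells beside 36.4% and 35.3% in stroma. For mt-Atp6, the complex V subunit that conducts protons, the levels were 1007 and 1212 CPM in Leydig cells, 1149 and 518 CPM in germ cells, 693 and 734 CPM in Sertoli cells, 422 and 445 CPM in myoid cells and 413 and 469 CPM in stroma, and here too Leydig and wild-type germ cells were highest. mt-Nd6, the only member encoded on the minus strand, measured 162 and 192 CPM in Leydig cells, 47.4 and 32.4 CPM in germ cells, 87.7 and 105 CPM in Sertoli cells, 49.0 and 58.0 CPM in myoid cells and 46.2 and 57.7 CPM in stroma, and wild-type germ cells lay at the level of stroma for it while Leydig cells lay above. The other mitochondrial members of complex I were in Leydig cells and stroma 11592 and 11878 against 2769 and 2643 CPM for mt-Nd2, 12077 and 11307 against 3238 and 3033 CPM for mt-Nd4, 1143 and 1274 against 375 and 364 CPM for mt-Nd5 and 1292 and 1098 against 444 and 345 CPM for mt-Nd3. In complexes IV and V they were 338 and 416 against 112 and 129.7 CPM for mt-Co2, 120.0 and 153 against 39.6 and 45.1 CPM for mt-Co3 and 78.4 and 82.9 against 23.4 and 19.1 CPM for mt-Atp8.

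Part of the mitochondrial genome has a nuclear copy, which bears on where a read can be placed. On GRCm38 the stretch chr1:24611535-24616197 is annotated with 7 pseudogenes of 7 mitochondrial protein genes, at 99.8% to 100% identity over the aligned bases. For 6 of them, mt-Co1, mt-Co2, mt-Atp6, mt-Co3, mt-Nd3 and mt-Nd4l, at least 90 of the last 100 bases are identical in the copy. For mt-Nd4 the copy covers 63.6% of the gene but not its end. The end of mt-Co3 and the matching stretch of its pseudogene Gm28437, shown in lower case throughout because no base differs, read the same over 60 bases.
mt-Co3, chrM:9330-9389, plus strand: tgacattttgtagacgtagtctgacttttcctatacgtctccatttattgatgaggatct
Gm28437, chr1:24613189-24613248, minus strand: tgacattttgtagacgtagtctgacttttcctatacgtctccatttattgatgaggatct
The 6 genes with their ends in the copy held 10.5% of the mitochondrial subunit UMIs of the table, and all 7 genes with a copy 28.2%. The 7 pseudogenes held 88 UMIs, of which 33 were on the copy of mt-Nd4. Reads were not limited to the last 100 bases. How many reads of the 7 genes were lost or moved through the copy was not tested. mt-Nd1, mt-Nd2 and mt-Cytb have no such copy annotated there.

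Single cells of 1 library are not replicates, but their spread shows how far the type values are shared. In Leydig cells the mitochondrial subunit share had a median of 6.44% and 6.20% with 10th to 90th percentiles of 3.41% to 8.70% and 3.95% to 8.57%, and it reached from 1.60% to 12.1% and from 0.186% to 11.1%. In stroma the median was 1.70% and 1.62%, and the 90th percentile, 2.36% and 2.23%, lay below the 10th percentile of Leydig cells. The nuclear share was narrower, with medians of 4.51% and 4.45% in Leydig cells and 2.08% in wild-type stroma. Wild-type germ cells had the widest mitochondrial spread, from 0 to 15.6% with 10th to 90th percentiles of 1.29% to 8.66%. Across the cells of a type, the mitochondrial and nuclear shares had a Spearman correlation of 0.48 and 0.34 in Leydig cells (n = 179 and 142), 0.20 in both libraries in stroma (n = 2859 and 2497), 0.25 and 0.27 in myoid cells (n = 723 and 501), 0.07 and 0.08 in Sertoli cells (n = 2174 and 1605) and -0.10 and -0.37 in germ cells (n = 90 and 12). These are descriptions of cells that share a library, and of shares that share each cell's total. Of Leydig cells, 81.6% and 85.9% had over 5% of their UMIs on mitochondrial genes, against at most 1.06% in Sertoli, myoid and stroma cells. Among germ cells, counted here without an upper limit, the shares were 69.2% of 91 and 0% of 12, so that a limit of that size removes most Leydig cells of both libraries and most wild-type germ cells.

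**Figure D3:**
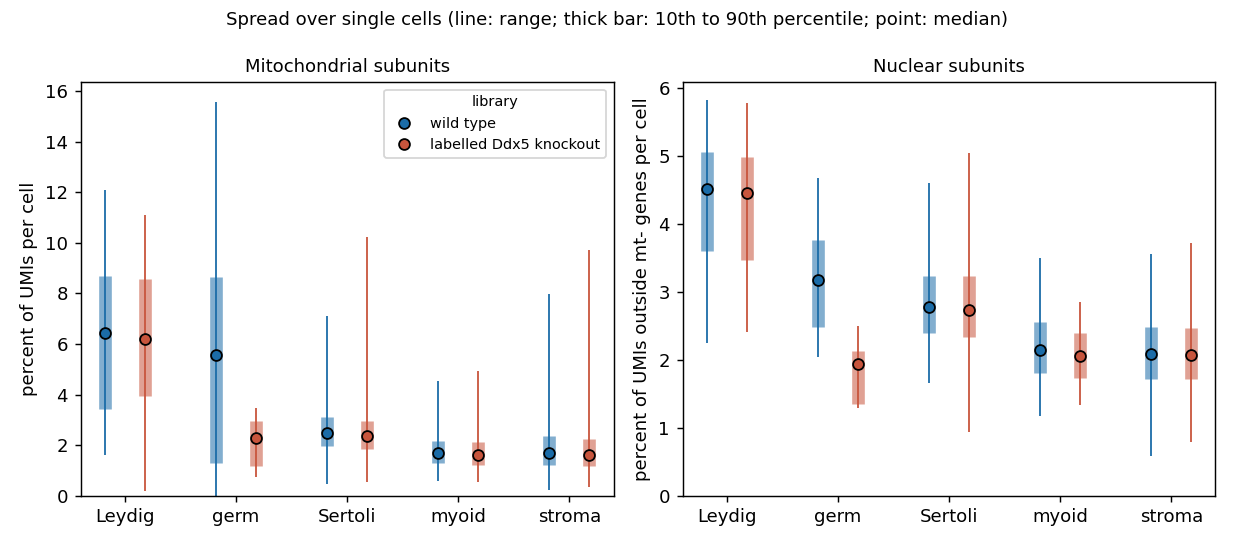
Share of UMIs on mitochondrial subunits (left, percent of all UMIs) and nuclear subunits (right, percent of UMIs outside mitochondrial genes) over single cells by type, with a point for the median, a thick bar from the 10th to the 90th percentile and a line for the full range, blue for wild type and red for the knockout-labelled library. The thick bars of Leydig cells, from 3.41% upward in wild type, lie above those of stroma, which end at 2.36%.

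Sertoli cells stood between Leydig cells and stroma, with 70 of 83 nuclear and 13 of 13 mitochondrial members above stroma in both libraries but fewer past 1.5-fold. Of all 16088 genes tested, 7426 were above stroma in both. Of 96 members tested, 27 were higher (20 of 83 nuclear and 7 of 13 mitochondrial) and 1 lower, against 11.8% of 16088 genes called higher and 11.5% called lower. The 27 include Cox6a2, which had 0 UMIs in stroma and passed the minimum of 20 UMIs only through Sertoli cells. The median log2 ratio was 0.33 and 0.37 for nuclear and 0.63 and 0.61 for mitochondrial members, and about 0.00 over all genes. Cox5a, a matrix-side subunit of complex IV, measured 444 and 431 CPM in Sertoli cells and 198 and 190.3 CPM in stroma, 2.24-fold (95% interval 2.18 to 2.31) and 2.26-fold (2.19 to 2.34), and in Sertoli cells it was as high as in Leydig cells (427 and 427 CPM). Ndufb1-ps, the locus that carries the mouse Ndufb1 subunit and is listed as a noncoding RNA in the annotation used, was 2.20-fold and 2.32-fold above stroma (323 and 313 CPM against 147 and 135 CPM), and Ndufb7, an accessory subunit of complex I, 1.96-fold and 2.01-fold (319.7 and 314 CPM against 163 and 156 CPM). Atp5c1, the gamma shaft of complex V, was the most captured nuclear member of that complex in Sertoli cells, at 850.5 and 772 CPM against 406 and 416 CPM. The member called lower was Ndufv3, an accessory subunit at the NADH-binding tip of complex I, at 276 and 239.5 CPM in Leydig cells, 203 and 142 CPM in germ cells, 69.6 and 63.5 CPM in Sertoli cells, 119 and 99.9 CPM in myoid cells and 126 and 128 CPM in stroma. Sertoli cells were the lowest of the types for it in both libraries, 0.550-fold and 0.496-fold of stroma.

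Myoid cells were close to stroma throughout. Of 95 members tested, 0 were past 1.5-fold in both libraries, against 2.24% of 14861 genes called higher and 2.93% called lower, and the median log2 ratio of the nuclear members was 0.01 and -0.05. Cox6b2, known as a testis form of a complex IV subunit, was farthest from stroma, at 84.6 and 92.2 CPM against 55.1 and 57.8 CPM, with log2 ratios of 0.54 and 0.59, of which the second alone was past 1.5-fold. On the other side lay Uqcrc1, a core subunit of complex III, at 99.8 and 103 CPM against 122 and 131 CPM.

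Germ cells carried subunit forms that the somatic cells hardly held. Cox7b2 (chr5:71442824-71548205, minus strand, GRCm38), a form of the complex IV subunit Cox7b, had 388 and 24 UMIs in germ cells, or 138 and 51.8 CPM, and 0.688 and 0 CPM in Leydig cells, 0.206 and 0.0357 CPM in Sertoli cells, 0.226 and 0 CPM in myoid cells and 0.409 and 0.154 CPM in stroma. Germ cells were 338-fold (95% interval 191 to 659.8) and 337-fold (116 to 1338) above stroma. After thinning each cell to 5000 UMIs, a Cox7b2 UMI was found in 59.6% and 33.3% of germ cells (93.3% and 83.3% unthinned, at median depths of 31956 and 34528 UMIs) and in at most 0.278% of the cells of any other type, where free RNA cannot be told apart from expression (stroma, 0.420% and 0.160% unthinned, at median depths of 9489 and 9599 UMIs). Cox8c (chr12:102899316-102900526, plus strand), a form of the subunit Cox8a, had 285 and 32 UMIs in germ cells, or 101 and 69.1 CPM, 6 and 0 UMIs in Sertoli cells and 0 in Leydig, myoid and stroma cells of both libraries. Against a floor of 3 UMIs over the stroma of each library it was at least 993-fold and at least 600.0-fold higher in germ cells.

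The common forms of these subunits behaved differently. Cox7b measured 380.4 and 374 CPM in Leydig cells, 96.2 and 56.1 CPM in germ cells, 214 and 219 CPM in Sertoli cells, 236 and 225 CPM in myoid cells and 231 and 225 CPM in stroma, and germ cells were 0.417 and 0.250 of stroma, so that Cox7b2 made up 59.0% and 48.0% of the UMIs of the pair in germ cells and at most 0.181% in the other types. Cox8a measured 1074 and 212 CPM in germ cells and 667 and 661 CPM in stroma, and Cox8c made up 8.64% and 24.6% of the UMIs of its family there. Cox6b2, in contrast, was a somatic transcript at this age, at 79.8 and 69.3 CPM in Leydig cells, 18.9 and 2.16 CPM in germ cells, 97.0 and 105 CPM in Sertoli cells, 84.6 and 92.2 CPM in myoid cells and 55.1 and 57.8 CPM in stroma. Germ cells had the least of it, and it was 18.4% and 20.1% of the Cox6b pair in Sertoli cells. Of the forms known from muscle, Cox7a1 and Cox6a2 were highest in Sertoli cells, and Cox8b had 0 UMIs there. Cox7a1 measured 9.63 and 8.84 CPM in Leydig cells, 17.8 and 10.8 CPM in germ cells, 29.5 and 21.4 CPM in Sertoli cells, 0.791 and 0.308 CPM in myoid cells and 0.988 and 0.844 CPM in stroma, which put Sertoli cells 29.9-fold (95% interval 20.7 to 44.9) and 25.3-fold (16.6 to 40.7) above stroma. Cox6a2 had 418 and 377 UMIs in Sertoli cells (12.3 and 13.5 CPM), 11 and 3 in germ cells and 0 in Leydig, myoid and stroma cells, at least 120.1-fold and at least 117-fold higher in Sertoli cells than the floor in stroma. Both forms stayed small beside their partners, since Cox6a1 held 96.3% and 96.0% and Cox7a2 94.8% and 96.1% of the pair in Sertoli cells. Cox4i2 and Ndufa4l2, the forms known from low oxygen, were at 2.59 and 2.26 CPM and 2.35 and 2.03 CPM in stroma and, in Leydig cells, had 1 and 0 and 0 and 0 UMIs.

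**Figure D4:**
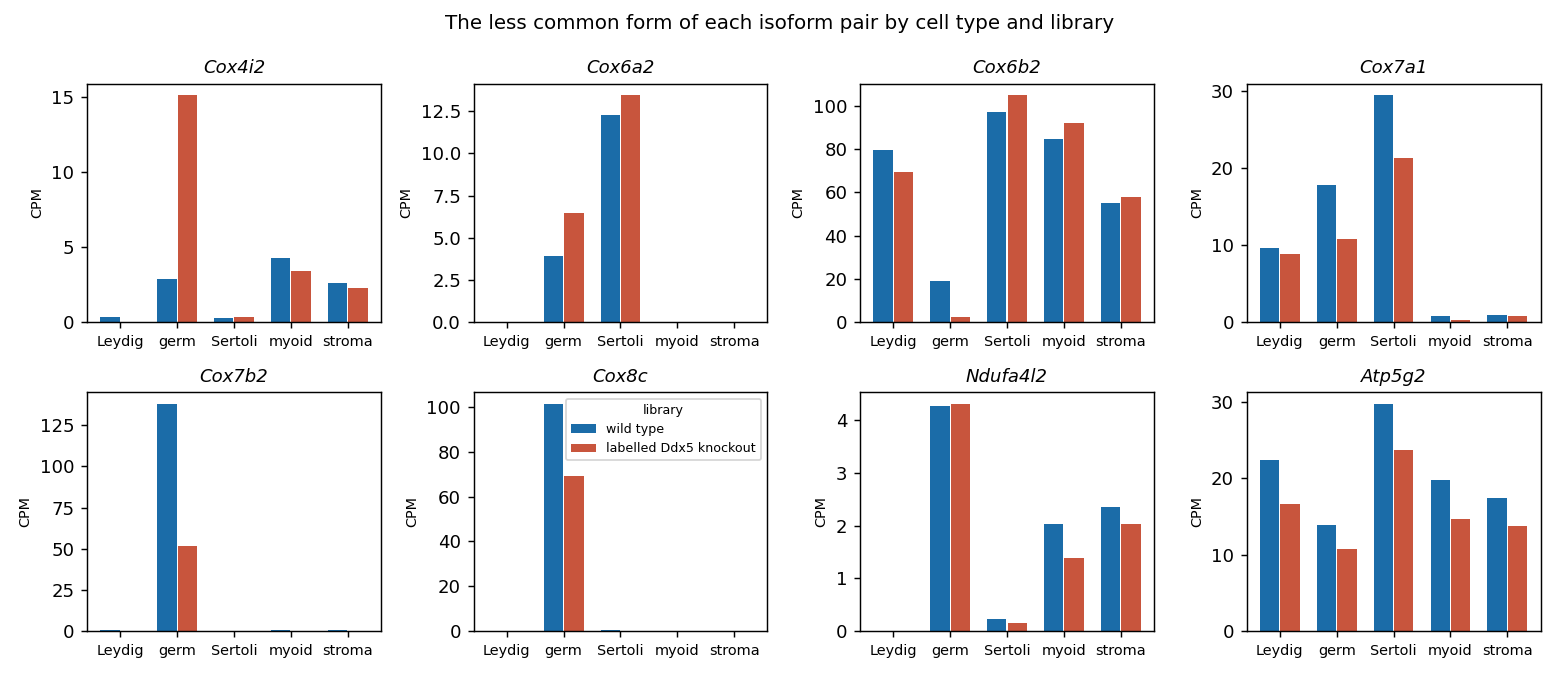
CPM of the less common form of each isoform pair by cell type, with blue bars for wild type and red bars for the knockout-labelled library, each panel on its own linear axis from 0. Cox7b2 and Cox8c are near 0 outside germ cells, Cox6a2 and Cox7a1 are highest in Sertoli cells, Cox6b2 is low in germ cells, and the tall red Cox4i2 bar in germ cells rests on 7 UMIs.

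Over all members, germ cells were not called higher than stroma in both libraries more often than genes at large. Of 97 members tested, 13 were higher in both (13.4%), near the 12.5% of 14710 genes, and 3 lower, against 16.4%. The 13 include Cox7b2 and Cox8c, which passed the minimum of 20 UMIs only through germ cells. Within wild type 42 were higher, against 26.4% of all genes, and 3 lower, against 19.4%. Within the knockout-labelled library 19 were higher, a share near the 18.4% of all genes, and 39 lower, against 33.0%. The nuclear median log2 ratio was 0.39 in wild type and -0.45 in the knockout-labelled library, and the mitochondrial median was 1.68 and 0.13, beside 0.04 and -0.21 over all genes. Of the other members higher in both, Ndufs8, a core iron-sulfur subunit of complex I, measured 289 and 220.2 CPM against 102 and 97.3 CPM in stroma. Ndufv1, the core subunit that binds NADH, measured 256 and 235 CPM against 113 and 118 CPM, and Ndufb9 was 2.80-fold and 2.75-fold above stroma. Atp5g1 and Cox4i1 were 2.01-fold and 1.95-fold and 1.92-fold and 2.35-fold above stroma in both libraries. The members lower in both were Cox7b and Cox6b2, both described above, and Uqcrc2, at 80.1 and 49.6 CPM against 125 and 134 CPM.

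Between the libraries, the subunits of both genomes were lower in the 12 germ cells of the knockout-labelled library. The germ cell rule was met by 132 and 12 barcodes, of which 90 and 12 were used. Leaving out barcodes that also met the Leydig, Sertoli or myoid definition thus acted on wild type alone. A member was called between libraries when past 1.5-fold, among genes with at least 20 UMIs over both. Of 94 members tested, 65 were lower (53 of 81 nuclear and 12 of 13 mitochondrial) and 3 higher, against 43.7% of 11033 genes called lower and 11.3% called higher. The median log2 ratio was -0.90 for nuclear members and -1.37 for mitochondrial members, both below the -0.46 over all genes tested. The 95% counting interval of the ratio lay below 1 for 73 members, above 1 for 8 and held 1 for 13. Intervals were not counted over all genes. By sign alone, 82 of 94 members and 7856 of 11033 genes had a log2 ratio below 0. As summed shares the ratio was 0.630 (95% interval 0.617 to 0.644) for nuclear and 0.342 (95% interval 0.335 to 0.350) for mitochondrial subunits, while the 2 mitochondrial ribosomal RNAs, which share the transcript units, stood at 0.819 (95% interval 0.786 to 0.853). By complex the nuclear ratio ran from 0.369 in complex II to 0.730 in complex IV, with 0.591 in complex I, 0.567 in complex III and 0.598 in complex V.

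The lowest ratio belonged to Ndufs7, the core subunit of complex I that hands electrons to ubiquinone, which had 883 and 13 UMIs in germ cells, or 314 and 28.1 CPM, a ratio of 0.0892 (95% interval 0.0473 to 0.153). Its level in the other types lay between 109 and 264 CPM in both libraries. Ndufb5 and Ndufa11, accessory subunits of the membrane arm, measured 245 and 25.9 CPM and 375 and 49.6 CPM, ratios of 0.106 (95% interval 0.0543 to 0.186) and 0.133 (95% interval 0.0836 to 0.200). Of complex V, Atp5md, a small membrane subunit, and Atp5h, subunit d of the stalk, measured 307 and 34.5 CPM and 366 and 54.0 CPM, ratios of 0.113 (95% interval 0.0641 to 0.184) and 0.147 (95% interval 0.0949 to 0.219). These members rest on 12 to 25 UMIs each in the lower group, so that their intervals are wide. In complex IV, Cox5a went from 738 to 132 CPM and Cox8a from 1074 to 212 CPM, and all 4 members of complex II were past 1.5-fold, from Sdhd at 0.293 to Sdhc at 0.590 of wild type.

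The mitochondrial members were lower in germ cells of the knockout-labelled library to different degrees. mt-Nd1 was at 0.215 (95% interval 0.204 to 0.226) of wild type, mt-Nd2 at 0.305 (95% interval 0.288 to 0.322), mt-Cytb at 0.433 (95% interval 0.417 to 0.448) and mt-Co1 at 0.463 (95% interval 0.427 to 0.502). mt-Nd1 and mt-Nd2 were thus farther below wild type than cytochrome b and the catalytic subunit of complex IV, and mt-Cytb took 36.2% of the mitochondrial subunit UMIs where it took 28.6% in wild type. For mt-Nd4l 29 UMIs in wild-type germ cells stood against 0, at least 1.59-fold lower against a floor of 3 UMIs, or 6.48 CPM. mt-Nd6, at 0.684 (95% interval 0.372 to 1.17), was the member not called.

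The 3 members called higher belonged to different complexes. Cox7a2l, the supercomplex factor, measured 470.4 and 1125 CPM in germ cells, a ratio of 2.39 (95% interval 2.16 to 2.65), against 312 to 414 CPM in the somatic types of both libraries. Ndufb11, an accessory subunit of complex I on the X chromosome, measured 308 and 496 CPM, a ratio of 1.61 (95% interval 1.39 to 1.87). Uqcrfs1, the Rieske iron-sulfur protein of complex III, measured 133 and 205 CPM, a ratio of 1.54 (95% interval 1.22 to 1.93). Several abundant members differed little, among them Ndufb9 at 0.991, Atp5g3 at 1.20 and Cox4i1 at 1.28 of wild type, so that the members did not shift as a block. Of the germ cell forms, Cox7b2 was at 0.375 (95% interval 0.237 to 0.566) and Cox8c at 0.681 (95% interval 0.457 to 0.983) of wild type.

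**Figure D5:**
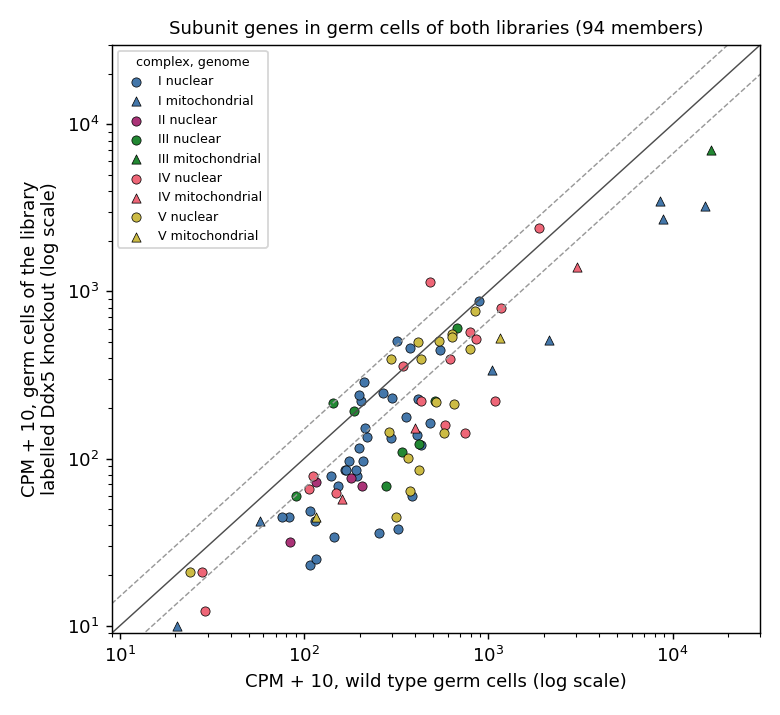
CPM + 10 of each of 94 members in germ cells of wild type (horizontal) and of the knockout-labelled library (vertical), both on log axes, with complexes by colour, mitochondrial genes as triangles, a solid line of equal level and dashed lines at 1.5-fold. Most points lie below the lower dashed line (65 members), and 3 lie above the upper line.

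Other features of these 12 cells moved with the subunits. Cytoplasmic ribosomal protein genes took 34.1% of their UMIs against 15.8% in wild-type germ cells, and 57 of 84 such genes tested were past 1.5-fold higher, against 11.3% of all genes. When CPM was taken outside these genes, 9 members were higher and 53 lower (41 of 81 nuclear and 12 of 13 mitochondrial), against 18.7% of all genes higher and 35.7% lower. The nuclear median was then -0.63, the mitochondrial -1.12 and that of all genes -0.25. Macrophage markers summed to 131 CPM in wild-type germ cells and 6.48 CPM in the others, with 4 of 6 at 0 in the latter, markers of early response and stress to 329 and 62.6 CPM, and erythroid markers to 11.4 and 47.5 CPM. Stroma markers summed to 413 and 645 CPM (3 of 6 tested higher, 0 lower), myoid markers to 55.9 and 119 CPM with Myh11 at 0, Leydig markers to 16.025 and 43.2 CPM with Insl3 at 0, and Sertoli markers to 115 and 69.1 CPM. Endothelial markers summed to 75.9 and 45.3 CPM. Of 9 germ cell markers tested 4 were lower and 1 higher, near the 43.7% lower and 11.3% higher of all genes. The part of these features in the result was not tested. Each of the 12 cells held between 0.736% and 3.49% of its UMIs on mitochondrial subunits, whereas wild-type germ cells reached both lower and higher. Neither animals nor labelled samples can be told apart in this group, and genotype and library cannot be told apart.

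In the somatic types no member was past 1.5-fold between the libraries. Of 93 members tested in Leydig cells, 0 were called, against 0.558% of 10925 genes higher and 0.522% lower, and of 95 in Sertoli cells 0, against 0.146% and 0.127% of 15788 genes. In myoid cells 0 of 94 were called, against 0.105% higher and 0.224% lower of 13381 genes, and in stroma 0 of 95, against 0.124% in each direction of 16112 genes. With so few genes called, a count of 0 is near the background. Small shifts of single mitochondrial members had the same sign in all 4 types. mt-Nd3 was at 0.849 of wild type in Leydig cells, 0.773 in Sertoli cells, 0.799 in myoid cells and 0.776 in stroma. mt-Nd6 was at 1.18, 1.19 and 1.18 in the first 3 of these types and was above wild type in stroma as well, and mt-Co2 at 1.23, 1.13, 1.22 and 1.16. mt-Cytb lay between 0.922 and 0.931 in all 4. These shifts were larger than counting error, and a difference between 2 libraries has no replicate check.

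Lists of genes that serve the chain had lower median ratios in Leydig cells than the nuclear subunits. As background, 12.1% of all genes were called higher than in stroma and 14.8% lower. Of 49 assembly factors tested, 14 were higher and 0 lower, with a median log2 ratio of 0.43 and 0.49. Cox17, the copper chaperone of complex IV, measured 175 and 153 CPM in Leydig cells and 30.5 and 30.2 CPM in stroma. Of 15 electron carrier genes, which make cytochrome c, ubiquinone and the flavoprotein link, 8 were higher and 0 lower. Cycs, cytochrome c itself, measured 266 and 272 CPM in Leydig cells, 350.4 and 583 CPM in germ cells, 1283 and 1329 CPM in Sertoli cells and 168 and 149.6 CPM in stroma, so that this carrier was highest in Sertoli cells and not in Leydig cells, the type with the largest subunit share. Of 19 genes for transcription and translation of mitochondrial DNA 9 were higher, and of 78 mitochondrial ribosomal protein genes 47, with a median of 0.71 and 0.72. Of the 12 outer membrane, import and carrier genes 5 were higher, led by the phosphate carrier Slc25a3 at 2733 and 2702 CPM against 408 and 405 CPM. None of these lists had a member lower.

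Of 16 genes of pyruvate oxidation and the citric acid cycle 12 were higher in Leydig cells and 1 lower, with a median log2 ratio of 0.91 and 0.99 beside 0.87 and 0.83 for the nuclear subunits. Mdh2, malate dehydrogenase, measured 443 and 443 CPM against 162 and 164 CPM in stroma, and the lower gene was Pdha1, a pyruvate dehydrogenase subunit, at 41.6 and 34.6 CPM against 78.9 and 84.4 CPM. Of 18 glycolysis genes 7 were higher and 2 lower, the latter being the hexokinases Hk1 and Hk2. Of 7 regulators of mitochondrial biogenesis tested 0 were called, and cytoplasmic ribosomal protein genes went the other way, with 1 higher and 26 lower of 83. All 7 tested genes of mitochondrial steroid synthesis were higher, a list that holds genes used to define the type.

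Between germ cell libraries these lists are to be read against the 43.7% of all genes lower and 11.3% higher in the knockout-labelled one. Of 47 assembly factors 22 were lower and 2 higher, of 15 electron carrier genes 10 and 2, and of 78 mitochondrial ribosomal protein genes 41 and 7, with medians of -0.53, -0.78 and -0.74 beside -0.46 over all genes. Of 16 citric acid cycle genes 10 were lower and 0 higher (median -0.88), of 18 glycolysis genes 9 and 2 (median -0.49), and of 18 genes for expression of mitochondrial DNA 8 and 2 (median -0.32). The shares of assembly factors, glycolysis genes and mitochondrial DNA expression genes called lower were near that of all genes. Of 12 outer membrane, import and carrier genes 8 were lower and 0 higher, of 6 regulators of biogenesis 4 and 0, and of 5 genes of mitochondrial steroid synthesis 1 and 1. Cycs was not among the lower genes, at 350.4 and 583 CPM. In the other types, 7 of 49 assembly factors, 20 of 78 mitochondrial ribosomal protein genes and 3 of 15 electron carrier genes were higher than stroma in Sertoli cells, against 11.8% of all genes, to which the assembly factors were close, and 0 of each in myoid cells, against 2.24%.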

How the data were processed

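Single-cell RNA of postnatal day 2 testes was captured by 3' droplet libraries. The authors deposited a table of UMI counts, unnormalized, of 30451 genes in 12186 barcodes, and the submitters' processing notes name Cell Ranger 3.1.0, Seurat 3.1.5 and GRCm38. The barcodes carry 2 suffixes, which no file pairs with a genotype. Wild type was assigned to the suffix of 6763 barcodes, because the other, with 5423, holds fewer barcodes than the wild-type cells the study kept, and CRE was counted in the other alone. No column was left without a library.

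A barcode was kept when it showed 2000 genes or more and no more than 20% mitochondrial UMIs (6350 and 4967). UMIs were summed per type and library and divided by the total (CPM). Ratios used CPM + 10, a fold of 1.5 and at least 20 UMIs, and for a count of 0 a floor of 3 UMIs per group. Intervals are 95% exact Poisson, conditional binomial or Clopper-Pearson. With 1 library per genotype there was no test. Scrublet in scanpy 1.11.5 called 302 and 290 doublets, which were kept in the values reported and removed in an alternative. Python 3.11.15, numpy 2.4.6, scipy 1.17.1, pandas 2.3.3, matplotlib 3.10.9 and Biopython 1.88 were used, and the scripts were tested on simulated data. Gene positions are from GENCODE and promoters from RefSeq. With members at 0 UMIs set at their bound, the nuclear median of germ cells between libraries was -0.90.

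Members, lists and alternatives (17) were chosen with earlier results of these data known. The genes named were the 13 mitochondrial subunits, both members of isoform pairs, the 5 members farthest to each side per comparison with at least 50 UMIs, and the most captured member per complex and type. Ndufs3, Uqcr10, Uqcrc2, Sdhb, Sdhc, Sdhd, Atp5a1, Cox6a1, the members near a ratio of 1 between germ cell libraries, the named genes of other lists, and the 6 promoters shown, were chosen after their values were seen.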

Additional observations from a re-analysis of the deposited data

Results flagged for a closer look

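By the median of the nuclear subunits, germ cells of the libraries lay on opposite sides of stroma. The median log2 ratio of nuclear subunits, germ over stroma, was 0.39 in wild type and -0.45 in the knockout-labelled library. With CPM outside ribosomal protein genes it was 0.29 and -0.24, beside -0.17 over all genes in the knockout-labelled library. The summed nuclear share outside ribosomal protein genes was above stroma in both libraries, at ratios of 1.40 and 1.14. The mitochondrial median was also above stroma in both, at 1.68 and 0.13. With 1 library per genotype and 12 germ cells in the second, the difference was not tested.

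For 6 of 97 members tested the log2 ratio was past 1.5-fold upward in wild type and downward in the knockout-labelled library. It was the other way for 0 members, a count not given over all genes. The log2 ratio was 1.24 and -1.91 for Ndufs7, 0.60 and -0.72 for Sdha, and 0.79 and -0.88 for Atp5o.1, a stalk subunit of complex V. It was 0.68 and -1.60 for Cox8a, 0.59 and -0.94 for Ndufb8, an accessory subunit of complex I, and 0.74 and -2.12 for Atp5md. Among all 14710 genes tested, 421 (2.86%) had this pattern. With CPM outside ribosomal protein genes 3 of the 97 members, Ndufs7, Atp5o.1 and Atp5md, still had it, a share near that of all genes. Of all genes 337 (2.29%) still had it. Macrophage and stress markers given above moved with it, and their part in it was not tested.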

How the results depend on the processing

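Over 17 alternatives, 201 counts of members stayed within 1.5 times the value reported, 20 moved and 0 reversed. Members higher in Leydig cells than in stroma ranged from 42 to 85 (75 reported), and members past 1.5-fold between germ cell libraries from 50 to 78 (68 reported). At a fold of 2, 42 members were higher in Leydig cells, 6 in germ cells and 4 in Sertoli cells, and 0 were lower in Sertoli cells. At a smaller fold, of 5 to 4, 20 were higher and 7 lower in germ cells, 52 higher in Sertoli cells and 2 in myoid cells, and between libraries 1 was past it in Leydig cells, 2 in Sertoli cells and 1 in stroma. With a pseudocount of 1 CPM, 2 were lower in Leydig cells, 3 lower in Sertoli cells, 1 higher in myoid cells and 1 past the fold between myoid libraries, and with 50 CPM 15 were higher and 0 lower in Sertoli cells. With cells that met exactly 1 definition, 1 was higher in myoid cells and 3 differed between myoid libraries, and with CPM outside ribosomal protein genes 1 was higher in myoid cells. The cause was not tested where it is not the changed fold itself. Of shares, 222 stayed within their counting interval and 118 moved, and of log2 ratios of named members 1619 and 523, with 0 reversed. The mitochondrial share of germ cells ranged from 5.24% to 6.73% in wild type and from 1.94% to 2.94% in the knockout-labelled library. No paired analysis was possible because no result comes from a test and barcodes carry no replicate number. The summed count was smallest for the 12 germ cells of the knockout-labelled library, at 463254 UMIs, although their median depth per cell was the highest.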

Other observations

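Kept barcodes outside the 5 types also held the subunits. The 325 and 210 barcodes in no type had 3.01% and 2.14% of their UMIs on mitochondrial subunits and 2.57% and 2.42% of UMIs outside mitochondrial genes on nuclear subunits. Of these, 88 and 35 met 2 or more of the Leydig, germ, Sertoli and myoid definitions, with 3.68% and 2.75% on mitochondrial and 2.76% and 2.75% on nuclear subunits. In wild type 1 barcode with at least 2000 genes lay over the mitochondrial limit, with 20.9% of its UMIs on mitochondrial subunits, and in the other library 0 did.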
